A study of Mus musculus with 32 samples.

Results

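The transcription factors described here are 10 genes of the naive pluripotency network: *Klf2*, *Klf4*, *Klf5*, *Esrrb*, *Tfcp2l1*, *Tbx3*, *Prdm14*, *Zfp42*, *Nr0b1* and *Nr5a2*. They were taken by gene symbol from a table of 54233 rows, and all 10 were among the 15227 genes that passed the filter on low values. Their transcripts were measured by RNA-seq in mES cells of the KH2 line (strain C57BL/6 in the labels), which carry a Dox-inducible transgene that expresses GATA6 and the red fluorescent protein DsRed2 from a TET-responsive element (TRE). There were 8 groups of 4 samples, 32 in all. The 0 h group had no Dox and was kept in 2i medium, with the MEK inhibitor PD0325901, a GSK3 inhibitor and LIF. The 2, 4 and 8 h groups were in serum medium with LIF and Dox at 1 µg/ml. The 16, 24, 48 and 96 h groups had Dox in serum medium for 12 h and then serum medium without Dox. All 32 samples carried the transgene, and the sources used here give no group that changed medium without Dox, so the medium and Dox cannot be told apart between 0 h and any later time point. These are samples of 1 engineered line, and nothing in the labels says whether the 4 replicates of a time point were separate cultures. The study states in general terms that replicate experiments were performed independently, without saying what was separate for RNA-seq.

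Naive pluripotency is the state of the early epiblast (Epi), which mES cells keep in culture while LIF activates STAT3 and while MEK and GSK3 are inhibited. Most of the factors below are known to bind DNA beside OCT4, SOX2 and NANOG or to help keep that state going, and most of them are known to be silenced as cells leave it. GATA6 is the factor that directs cells of the inner cell mass to primitive endoderm (PrE), the alternative to Epi. KLF2, KLF4 and KLF5 are Krüppel-like zinc finger factors that bind GC-rich DNA. ESRRB and NR5A2 are orphan nuclear receptors, and NR0B1 (also called DAX1) is a nuclear receptor-like protein known as a corepressor. TFCP2L1 belongs to the grainyhead family, TBX3 is a T-box factor, PRDM14 is known to repress genes of DNA methylation and FGF signalling, and ZFP42 (REX1) is a zinc finger protein used as a marker of naive cells.

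Expression is given as the normalized count, the reads on a gene divided by the size factor of the sample. Changes are log2 fold changes on the scale of log2(normalized count + 1), which understates the change of genes at very low counts, with the standard error (SE) and the adjusted p of limma (Benjamini-Hochberg over 15227 genes in each comparison). A gene "fell" or "rose" where that p was under 0.1, and it "passed the 4-fold threshold" where the log2 fold change was also at least 2 in either direction. The samples held between 3190108 and 12301732 reads on genes (median 8870662.5). Replicates 1 and 2 resembled each other more than they resembled replicates 3 and 4: the median chi-square per degree of freedom of their reads was 1.59 over the 16 pairs within these sets and 11.4 over the 32 pairs between them. The sources used here name no batch. Where averaging within each set ended calls, the number is given with the comparison. In bulk samples, fewer cells of a type and less RNA per cell cannot be told apart.

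The cells matched their labels. *Gata6* had a mean of 0.371 normalized counts at 0 h (at most 1 read in every sample), 14.9 at 2 h, 171 at 4 h and 2067 at 96 h, transgene and endogenous copies not separated. At 0 h *Pou5f1*, which encodes OCT4, stood at a mean of 9104 and *Nanog* at 5875. The summed level of 11 PrE markers had a range of 515.8 to 544.0 at 0 h, 9108 to 9583 at 8 h and 214900 to 279900 at 96 h. All 11 passed the 4-fold threshold above 0 h from 8 h on. Of 5 fibroblast markers, which would mark feeder cells, 4 did not pass the filter, *Postn* or *Lum* was without a read at each time point, and the sum was 3.26 to 33.97 over all samples. The part of the PrE markers in the changes below was not tested.

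The proximal promoters of 7 of the 10 factors were in the RefSeq table used here (GRCm38.p6), and the bases before the transcription start of 4 of them are printed. *Klf2* and *Klf4* are shown because related factors changed by very different amounts, *Nr5a2* because its mean was lower at each time point than at the one before, and *Zfp42* because it was the last of them to pass the 4-fold threshold. The course of *Nr5a2* is not particular to it: the means of *Zfp42* and of *Nr0b1*, whose window is not printed, also fell at each time point. The windows lie at chr1:136960449-136960698 (minus strand) for *Nr5a2*, chr8:43307010-43307259 (minus strand) for *Zfp42*, chr8:72318812-72319032 (plus strand) for *Klf2* and chr4:55532476-55532725 (minus strand) for *Klf4*. Each is written 5′ to 3′ on the strand of its gene. Capitals mark matches on either strand to any of 3 motifs. These are the core bound by GATA factors, GATAA, then the octamer that OCT4 reads, ATTTGCAT, and the GC box, GGGCGGG.
Nr5a2: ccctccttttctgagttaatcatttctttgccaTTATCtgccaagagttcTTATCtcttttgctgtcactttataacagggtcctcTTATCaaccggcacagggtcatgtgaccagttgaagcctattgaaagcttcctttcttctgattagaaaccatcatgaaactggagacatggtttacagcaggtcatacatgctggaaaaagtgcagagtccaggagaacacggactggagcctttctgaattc
Zfp42: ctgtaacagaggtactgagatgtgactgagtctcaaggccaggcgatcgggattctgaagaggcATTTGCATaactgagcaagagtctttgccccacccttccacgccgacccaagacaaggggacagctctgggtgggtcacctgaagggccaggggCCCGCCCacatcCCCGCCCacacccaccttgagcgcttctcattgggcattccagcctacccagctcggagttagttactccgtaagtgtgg
Klf2: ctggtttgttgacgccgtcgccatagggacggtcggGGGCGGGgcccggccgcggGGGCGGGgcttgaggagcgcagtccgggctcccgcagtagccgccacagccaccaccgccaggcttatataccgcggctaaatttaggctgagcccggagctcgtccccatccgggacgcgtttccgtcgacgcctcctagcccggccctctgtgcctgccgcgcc
Klf4: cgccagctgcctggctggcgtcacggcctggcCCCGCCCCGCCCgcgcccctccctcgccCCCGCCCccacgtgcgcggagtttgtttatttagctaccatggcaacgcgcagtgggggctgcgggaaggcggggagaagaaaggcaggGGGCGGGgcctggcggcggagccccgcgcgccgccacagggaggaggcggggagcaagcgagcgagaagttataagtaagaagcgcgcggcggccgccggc
The *Nr5a2* window held 3 GATAA matches, all on the strand opposite the gene, so that they read TTATC as printed, beginning at -217, -200 and -164 from the start. At least 1 such match was in 22.6% of 32851 RefSeq promoter windows and at least 3 in 0.712%. None of the other 8 windows of these factors held GATAA. The octamer in *Zfp42* began at -186, and 1.601% of the windows held it. GC boxes numbered 2 in *Zfp42*, 2 in *Klf2* and 4 in *Klf4*, of which 2 overlapped, and 23.4% of all windows held at least 1. The remaining motifs searched were AAGGTCA, read by ESRRB and NR5A2, which was in 4.08% of windows and in none of these, and TTCNNNGAA, read by STAT factors, which was in 7.02% and once in an *Esrrb* window at -178. A match is a description of letters and not a binding site.

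The first comparison asked which factors differed from uninduced cells at each later time point. Most of them fell, and they did so in sequence, whereas *Klf5* and *Tbx3* were higher than at 0 h for most of the course. The factors past the 4-fold threshold below 0 h numbered 1 of 10 at 2 h (0.348% of all genes tested passed it) and 1 at 4 h (0.709%). There were 4 by 8 h (1.31%) and 5 by 16 h (2.4%). The count was 6 at both 24 h (4.34%) and 48 h (7.09%), and it was 7 when the course ended at 96 h (10.3%). *Prdm14* passed first. *Esrrb*, *Klf2* and *Nr5a2* joined it at 8 h, *Nr0b1* at 16 h, *Tfcp2l1* at 24 h and *Zfp42* at 96 h. Once past the threshold, each of these stayed past it at every later time point. *Klf4* fell but did not pass it at any time point. Without replicate 2 the count at 4 h was 2, and leaving out 1 replicate gave 4 or 5 at 16 h.

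No factor passed the 4-fold threshold in the upward direction by limma or by limma-voom at any of the 7 time points, where 2%, 2.69%, 3.4%, 4.03%, 4.85%, 8.48% and 9.28% of all genes did. With no fold minimum, 7 factors fell at 2 h (22.6% of all genes), 7 at 4 h (23.8%) and 8 at each of 8 h (22.8%), 16 h (25.3%), 24 h (30.7%), 48 h (37.3%) and 96 h (38.5%). *Klf5* and *Tbx3* rose at 2 h (22.2% of all genes), 4 h (24.7%), 8 h (26.3%), 16 h (28%), 24 h (31.2%) and 48 h (36.1%), and at 96 h (38%) *Klf5* alone did. The counts at an unadjusted p under 0.05 were the same, 2 higher at each of the first 6 of these time points and 1 at 96 h. The median change of the 10 factors went from -0.73 at 2 h through -1.40 at 8 h to -2.83 at 24 h, then reached -3.77 by 48 h and -5.16 by 96 h, beside a median over all genes between -0.03 and 0.01.

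**Figure D1:**
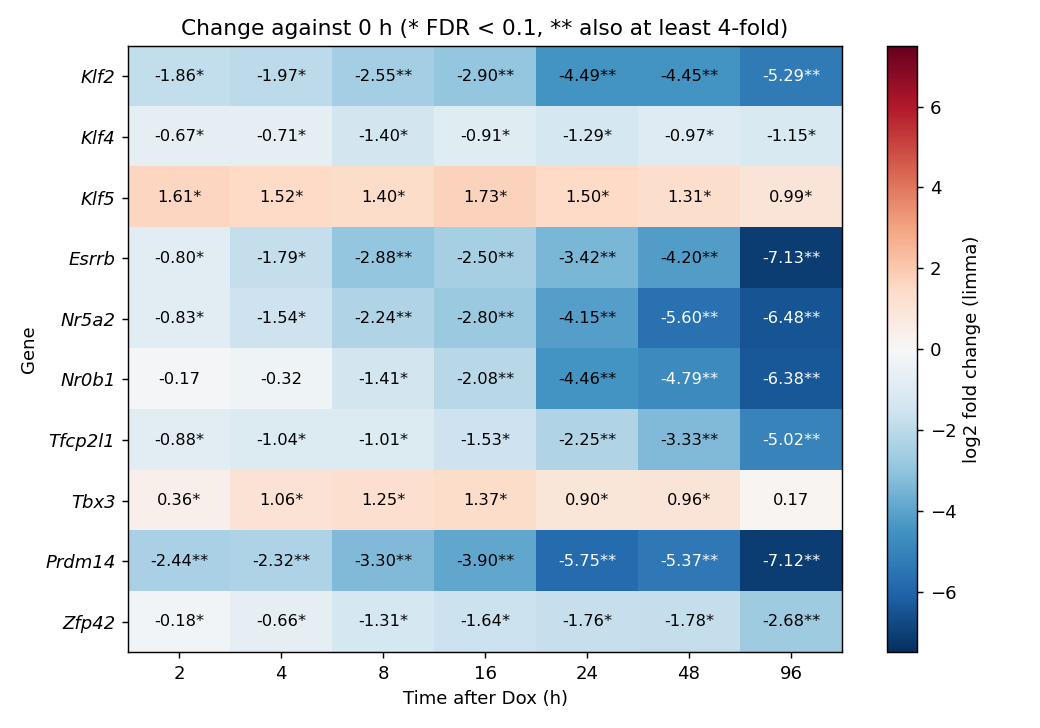
Log2 fold change of each of the 10 factors (rows) at each later time point against 0 h (columns, hours), fitted with limma on 32 samples. Blue is lower and red higher than at 0 h. The largest fall is -7.13 (*Esrrb* at 96 h) and the largest rise 1.73 (*Klf5* at 16 h), and the asterisks on *Tbx3* and *Zfp42* at 2 h were lost when the replicate sets were averaged.

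The 3 KLF factors went different ways. *Klf2* (chr8:72319033-72321656 in GRCm38, 3 exon blocks in GENCODE M21) had normalized counts of 751, 648, 733 and 674 at 0 h and of 155, 177, 229.8 and 220.0 at 2 h. The groups were far apart, and the change at 2 h was -1.86 (SE 0.18, limma adjusted p = 8.2e-10). At 4 h the 4 samples stood between 138 and 213, and the step from 2 h to 4 h was -0.11 (limma adjusted p = 0.72). *Klf2* therefore had 27.8% of its 0 h mean left at 2 h and 25.7% at 4 h, a drop after which the mean changed little. The replicate sets went opposite ways in that step. The mean of replicates 1 and 2 went from 165.7 to 201.5, and that of replicates 3 and 4 from 224.9 to 159.1.

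The next large step of *Klf2* came between 16 h and 24 h. The samples at 16 h had 103, 106, 87.2 and 78.5 normalized counts, and those at 24 h had 24.0, 38.8, 40.6 and 22.0. Every sample at 24 h was below every sample at 16 h, a change of -1.59 (SE 0.18, limma adjusted p = 9.6e-08). The values at 48 h, 36.7, 32.03, 23.8 and 33.03, overlapped those at 24 h. By 96 h the samples stood at 18.04, 19.98, 15.06 and 15.13, which was 2.43% of the 0 h mean.

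*Klf4* (chr4:55527143-55532466), known as a target of STAT3 and as 1 of the factors used to reprogram somatic cells, had normalized counts of 1758, 2035, 2732 and 2506 at 0 h. The samples of 8 h, at 819, 754, 901 and 898, had the lowest mean of the course, overlapped those at 24 h (793.9 to 989) and were all below those at 0 h (-1.40, SE 0.13, limma adjusted p = 1.7e-10). At 16 h, 4 h after Dox was taken away, they stood at 1102, 1117, 1313 and 1203. This was a rise of 0.49 over 8 h (SE 0.13, limma adjusted p = 0.0069), with no overlap between the groups, although the adjusted p was 0.25 after averaging within the replicate sets. *Klf4* kept 44.5% of its 0 h mean at 96 h, with 1006, 967, 1074 and 973.

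*Klf5* (chr14:99298691-99315036), which is known to act in both the epiblast and the trophectoderm of the blastocyst, rose at 2 h from 1515, 1561, 1372 and 1541 to 3829.6, 3920.3, 5211 and 5558 normalized counts. The change was 1.61 (SE 0.11, limma adjusted p = 2.6e-13). Its highest mean was at 16 h, 4961 ± 178 (SD, n = 4), 331% of the 0 h mean. It then declined to 2887, 2861, 3100.4 and 3063 at 96 h, still above every sample at 0 h.

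Whether the related factors moved by different amounts was tested on the log2 difference between 2 genes within each sample, at 8 h and 48 h against 0 h. There were 12 such tests (two-sided exact permutation test, 4 samples against 4, for which 0.0286 is the smallest p), adjusted by Benjamini-Hochberg. *Klf2* lost 1.15 more than *Klf4* by 8 h (SE 0.17) and 3.48 more by 48 h (SE 0.22). *Klf4* moved by -2.80 relative to *Klf5* by 8 h (SE 0.17) and by -2.29 by 48 h (SE 0.19). *Klf2* moved by -3.95 (SE 0.12) and -5.77 (SE 0.18) relative to *Klf5*. Each of these 6 differences had the smallest p the exact test allows, with an adjusted p = 0.0343, so all 4 samples lay on 1 side of those at 0 h. The test treats the 4 samples of a time point as separate, although replicates 1 and 2 and replicates 3 and 4 form sets. It was not repeated on averages within the sets, where 2 values against 2 are too few to give a small p.

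**Figure D2:**
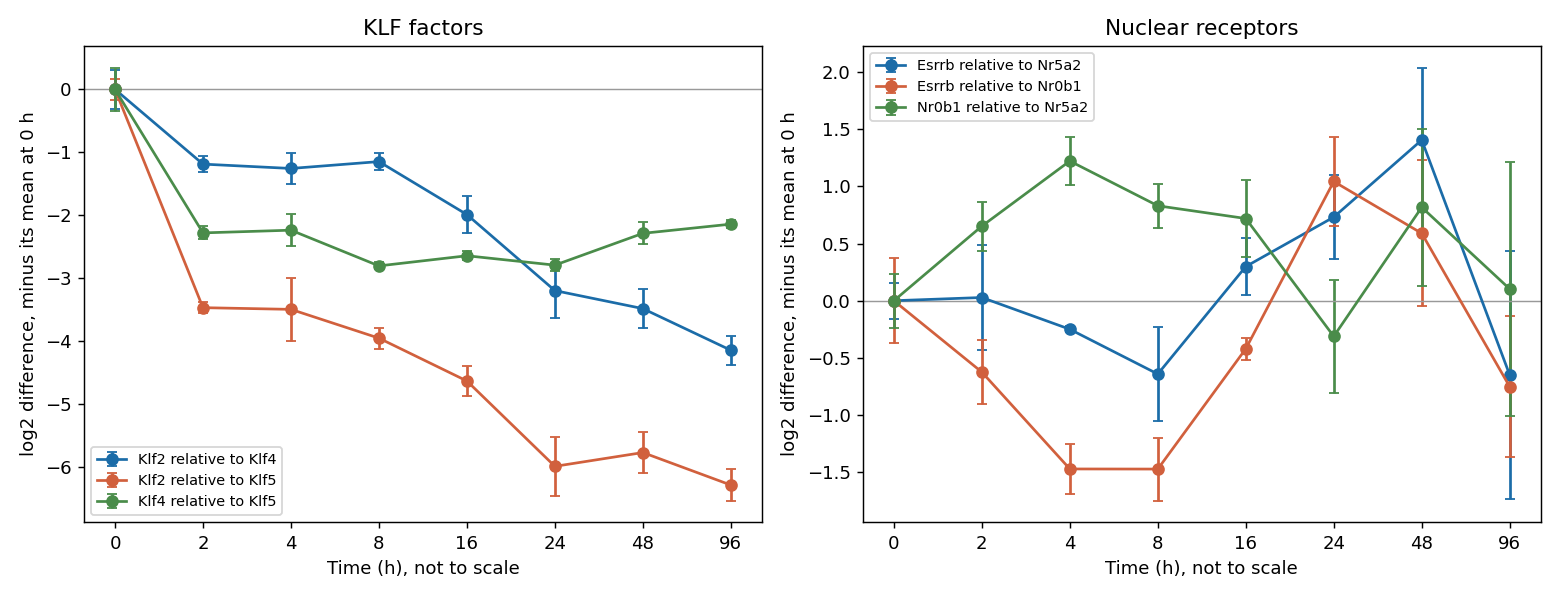
Log2 difference between 2 factors within a sample, minus its mean at 0 h, against time (hours, not to scale), for the 3 KLF pairs (left) and the 3 nuclear receptor pairs (right). Points are means of 4 samples and bars their SD. *Klf2* relative to *Klf5* reached -5.77 at 48 h, whereas both *Esrrb* pairs were below 0 at 8 h and above it at 48 h.

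The receptors *Esrrb*, *Nr5a2* and *Nr0b1* each ended at 1.20% or less of the 0 h mean but took different routes. *Esrrb* (chr12:86361117-86521628) had 5869, 6451, 7383 and 7576 normalized counts at 0 h and 3631, 3587, 4226 and 4219 at 2 h. At 8 h the samples stood at 784, 779, 1053 and 1119, a change of -2.88 against 0 h (SE 0.16, limma adjusted p = 6.1e-15). The fall then stopped for a time: the samples at 16 h, at 1065, 1096, 1347 and 1301, overlapped those at 8 h, and the step of 0.38 did not pass the test (SE 0.16, limma adjusted p = 0.13).

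*Esrrb* had its largest step in the last and longest interval of the course. The samples at 48 h had 445, 426, 325 and 302 normalized counts and those at 96 h had 66.8, 58.9, 37.7 and 34.0. The groups did not overlap, and the change was -2.93 (SE 0.16, limma adjusted p = 1.3e-14). At 96 h *Esrrb* was at 0.724% of its 0 h mean.

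*Nr5a2* (chr1:136842571-136960448) had a lower mean at every time point than at the one before, as did *Nr0b1* and *Zfp42*. *Nr5a2* began with 785, 832, 782 and 856 normalized counts, and the 2 h samples had 557, 559, 361 and 393. At 4 h there were 243, 276, 292 and 309. By 2 h the change was -0.83 (SE 0.26, limma adjusted p = 0.011), with replicates 1 and 2 higher than replicates 3 and 4. At 24 h the values were 44.4, 50.7, 52.8 and 34.2, and at 48 h 19.8, 11.3, 11.4 and 23.7. No sample at 48 h reached the lowest at 24 h, a change of -1.46 (SE 0.26, limma adjusted p = 2.2e-05). The mean at 96 h was 9.19 ± 4.96 (SD, n = 4), from 3 to 14 reads per sample, so the size of the last step is known only within counting error.

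*Nr0b1* (chrX:86191764-86195947) was slow to respond. It had 930.3, 862, 731 and 689 normalized counts at 0 h. The samples of 2 h had 793, 749, 681 and 619.7, and those of 4 h had 676, 657, 585 and 647. These groups overlapped with 0 h at 2 h but not at 4 h, and neither change passed the test (-0.17, limma adjusted p = 0.61, and -0.32, limma adjusted p = 0.30). The result at 4 h depends on the processing: over the alternatives its adjusted p by limma or limma-voom ranged from 0.011 to 0.5. At 8 h the samples stood at 302, 288, 331 and 283, a change of -1.41 against 0 h (SE 0.24, limma adjusted p = 1.4e-05).

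The steepest step of *Nr0b1* was from 16 h, with 168, 158, 210.3 and 222, to 24 h, with 28.8, 46.3, 28.4 and 40.8. It was the only factor past the 4-fold threshold in that interval (-2.38, SE 0.24, limma adjusted p = 1.3e-08), and without replicate 2 there were 2. At 96 h its samples had 9.55, 16.8, 3.77 and 8.51.

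Set against each other, *Esrrb* moved by -0.64 relative to *Nr5a2* by 8 h (SE 0.22) and by -1.47 relative to *Nr0b1* (SE 0.23), and *Nr0b1* by 0.83 relative to *Nr5a2* (SE 0.15). Each had p = 0.0286 by the exact test and an adjusted p = 0.0343, with the same limit from the replicate sets as for the KLF pairs. By 48 h the order had turned for *Esrrb* and *Nr5a2*, where *Esrrb* had lost less, by 1.41 (SE 0.33, exact p = 0.0286, adjusted p = 0.0343). The differences of *Esrrb* and *Nr0b1* (0.59, SE 0.37, exact p = 0.2, adjusted p = 0.2) and of *Nr0b1* and *Nr5a2* (0.82, SE 0.36, exact p = 0.0857, adjusted p = 0.0935) did not pass the threshold at 48 h, which does not show that these pairs fell alike. The *Esrrb* and *Nr0b1* difference was 1.40 in replicates 1 and 2 alone and -0.22 in replicates 3 and 4 alone.

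**Figure D3:**
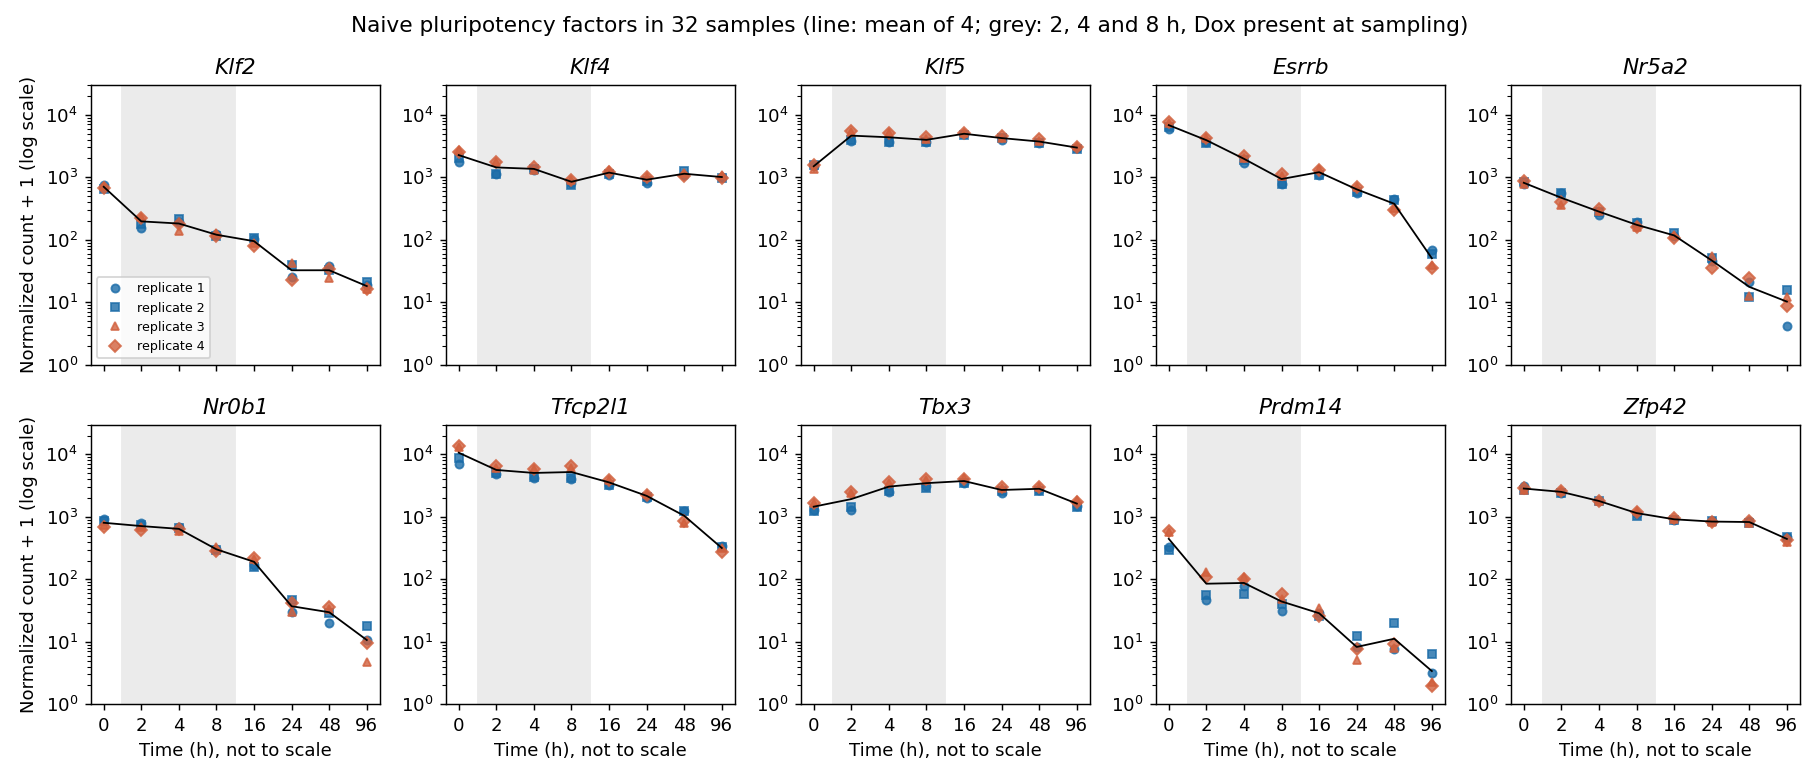
Normalized count + 1 (log scale) of each factor in all 32 samples against time (hours, not to scale). Symbols stand for the replicates (blue for 1 and 2, orange for 3 and 4), lines for the mean of 4, and grey for the time points with Dox still present. *Klf4*, *Klf5* and *Tbx3* stay at or above 754 in every sample, whereas *Prdm14*, *Nr0b1*, *Nr5a2*, *Klf2* and *Esrrb* end at or below 66.8 in every sample.

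*Tfcp2l1* (chr1:118627945-118685168), a target of LIF and STAT3 that can sustain self-renewal, had 7069.5, 8883, 13171 and 13406 normalized counts at 0 h. Replicates 1 and 2 were lower than replicates 3 and 4. At 2 h the samples had 4895, 4997, 6069 and 6562, all below those at 0 h (-0.88, SE 0.18, limma adjusted p = 0.00025). The next steps were small: at 8 h the samples stood at 4089.5, 4154, 6146 and 6480.3, and the step from 4 h to 8 h was 0.03 (limma adjusted p = 0.95).

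After 8 h *Tfcp2l1* fell at each step, although the adjusted p was 0.45 from 8 h to 16 h and 0.19 from 16 h to 24 h after averaging within the replicate sets. The samples at 24 h had 2014, 2096, 2289 and 2265, and those at 48 h had 1253, 1255, 805 and 843. Those at 96 h had 346, 332, 316 and 270.4. The last step was -1.69 (SE 0.18, limma adjusted p = 7.3e-09), and 2.97% of the 0 h mean was left. *Tfcp2l1* shares 130 exon bases with the small nuclear RNA gene *Gm23497* on the same strand, where reads could be split or dropped.

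*Prdm14* (chr1:13113457-13127163) was the first factor past the 4-fold threshold. Its normalized counts were 329.9, 292, 568 and 586 at 0 h and 45.7, 55.9, 128 and 107 at 2 h. No sample at 2 h came near those at 0 h, and the change of -2.44 (SE 0.36, limma adjusted p = 3e-06) ranked 17th from the largest fall among the 15227 genes. At 4 h the samples, at 77.1, 58.1, 109 and 101, overlapped those at 2 h (0.12, limma adjusted p = 0.87). It was 27.6 ± 4.04 at 16 h and 7.26 ± 2.99 at 24 h (SD, n = 4), a step of -1.85 (SE 0.36, limma adjusted p = 0.00037). At 96 h the 4 samples had 1 to 5 reads each.

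*Zfp42* (chr8:43295063-43306980) had its largest step in the last and longest interval, from 48 h to 96 h. It had 3094, 2733, 2671 and 2861 normalized counts at 0 h and 2441, 2382, 2637 and 2576 at 2 h, a change of -0.18 (SE 0.06, limma adjusted p = 0.022) that had an adjusted p = 0.23 after averaging within the replicate sets. At 4 h the samples stood at 1761, 1812, 1816 and 1785 and at 8 h at 1098, 1041, 1239 and 1216. From 24 h, with 843, 852, 831 and 832, to 48 h, with 866, 784, 805 and 845, there was no detectable change (-0.03, limma adjusted p = 0.75). At 96 h the samples had 475, 468, 393 and 431, below every earlier sample (-0.90 against 48 h, SE 0.06, limma adjusted p = 7.8e-13).

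*Tbx3* (chr5:119670669-119684724), known both as a naive factor and as a factor expressed in endoderm, had 1275, 1236, 1658 and 1643 normalized counts at 0 h. At 2 h it had 1308, 1441, 2423 and 2524, which overlapped with 0 h, and the change of 0.36 (SE 0.16, limma adjusted p = 0.087) had an adjusted p = 0.39 after averaging within the replicate sets. At 4 h the samples, at 2522, 2604, 3494 and 3569, were all above those at 0 h (1.06, SE 0.16, limma adjusted p = 4.5e-06). They peaked at 16 h with 3418, 3451, 4121 and 3985.

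The level of *Tbx3* then declined. At 96 h it had 1489, 1452, 1870.3 and 1699, which overlapped the samples at 0 h, and its change of 0.17 (SE 0.16, limma adjusted p = 0.36) turned to -0.09 when samples were scaled by total reads. It shares 115 exon bases with its antisense gene *Tbx3os1*. The library kit marks strand, but the strand setting of the counting is not given in the sources used here.

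The second comparison set each time point against the preceding one. Between 2 h and 4 h none of the factors passed the 4-fold threshold by limma or limma-voom (0.23% of all genes were lower and 0.558% higher), and 3 fell (10.9% of all genes) and *Tbx3* rose (13.6%) with no fold minimum, the same counts as at an unadjusted p under 0.05. The 3 falls were left after averaging within the replicate sets and the rise was not (limma adjusted p = 0.18). Between 4 h and 8 h none passed it by either tool (0.25% and 0.565%), and 7 fell (7.57%), all but *Klf5*, *Tbx3* and *Tfcp2l1*, and none rose (9.51%), again with 7 and 0 at an unadjusted p under 0.05. Averaging left 3 of the 7 falls, and ended those of *Klf2*, *Klf4*, *Nr5a2* and *Prdm14* (limma adjusted p from 0.11 to 0.46). Between 8 h and 16 h none passed it by either tool (0.539% and 0.499%). In that interval, in which Dox was withdrawn, *Nr0b1*, *Tfcp2l1* and *Zfp42* fell (10.6%) and *Klf4* and *Klf5* rose (9.44%), and 4 were lower and 3 higher at an unadjusted p under 0.05. After averaging within the replicate sets, 0 of these 5 changes were left (limma adjusted p from 0.11 to 0.45).

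From 16 h to 24 h, 8 of the 10 fell (14.8% of all genes) and none rose (13.3%), and *Nr0b1* passed the 4-fold threshold (0.729%), with none above it by limma or limma-voom (0.525%). Averaging left 5 of the 8 falls, and ended those of *Klf4*, *Tbx3* and *Tfcp2l1*. From 24 h to 48 h the factors *Esrrb*, *Nr5a2* and *Tfcp2l1* fell (27.8%) and *Klf4* rose (29.8%), with none past the threshold by limma or limma-voom (1.41% and 2.51%) and the same counts of 3 and 1 at an unadjusted p under 0.05. Averaging ended the rise of *Klf4* (limma adjusted p = 0.23) and left the 3 falls. From 48 h to 96 h, 9 fell (27.2%), all but *Klf4*, none rose (27.3%), and *Esrrb* alone passed the threshold (2.4%), with none above it by limma or limma-voom (1.3%). At an unadjusted p under 0.05, 9 were lower and 0 higher from 16 h to 24 h and again from 48 h to 96 h. Averaging left 8 of the last 9 falls, without *Klf5* (limma adjusted p = 0.17). Over all comparisons, the steps between neighbouring time points were sensitive to how the replicate sets were used: of 123 changes at an adjusted p under 0.1, 19 were not under 0.1 after averaging within the sets. Against 0 h this held for 2 of 67, *Tbx3* and *Zfp42* at 2 h.

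The third comparison set 48 h and 96 h against 2 h, all in serum medium. The cells at 2 h had left 2i medium only 2 h before, so slower responses to that change remain in it. Dox was present at 2 h and had been withdrawn before 48 h. Time, the medium change and Dox therefore cannot be told apart here. Of the 10 factors, 6 passed the 4-fold threshold below 2 h at 48 h (7.65% of all genes) and 7 at 96 h (10.6%), and none above it by limma or limma-voom (8.5% and 9%). With no fold minimum 9 fell at 48 h (38.3%) and *Tbx3* rose (36.9%), and 9 fell at 96 h (39.4%) and none rose (37.6%), with the same counts at an unadjusted p under 0.05. Averaging within the replicate sets left 7 of the 9 falls at 48 h, without *Klf4* (limma adjusted p = 0.19) and *Klf5* (0.14), and all 9 at 96 h. The falls from 2 h to 96 h were largest in *Esrrb* (-6.33, SE 0.16), *Nr0b1* (-6.20, SE 0.24) and *Nr5a2* (-5.65, SE 0.26), for which the adjusted p of limma lay between 3.5e-24 and 2.6e-18. *Klf5* fell by 0.62 (SE 0.11, limma adjusted p = 5.2e-06) and *Klf4* by 0.48 (SE 0.13, limma adjusted p = 0.0012) from 2 h to 96 h.

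The share of the 96 h change that was already present at 2 h, on the log2 scale, ranged widely among the factors that fell. It was 58.3% for *Klf4*, 35.1% for *Klf2* and 34.3% for *Prdm14*. For *Tfcp2l1* it was 17.5%, for *Nr5a2* 12.7% and for *Esrrb* 11.2%, and for *Zfp42* and *Nr0b1* it was 6.62% and 2.7%. The mean first went below 50% of 0 h at 2 h for *Klf2* and *Prdm14*, at 4 h for *Esrrb*, *Nr5a2* and *Tfcp2l1* and at 8 h for *Klf4*, *Nr0b1* and *Zfp42*. It went below 10% at 8 h for *Prdm14*, at 24 h for *Klf2*, *Esrrb*, *Nr5a2* and *Nr0b1* and at 48 h for *Tfcp2l1*, and it stayed above for *Klf4* and *Zfp42*.

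Levels were compared between genes as normalized counts per kb of exon (GENCODE M21, all exons of a gene joined). At 0 h the order per kb was *Zfp42* with 1509.8 ± 99.6, *Esrrb* with 1128 ± 133, *Tfcp2l1* with 1127 ± 334 and *Klf4* with 741 ± 145 (SD, n = 4). Next came *Nr0b1* (444 ± 62.1), *Klf2* (379.9 ± 26.2), *Klf5* (288 ± 16.5), *Tbx3* (219 ± 34.5), *Prdm14* (173 ± 60.2) and *Nr5a2* (138 ± 6.11). The samples of *Esrrb* and *Tfcp2l1* overlapped, as did those of *Tfcp2l1* and *Klf4*, of *Nr0b1* and *Klf2*, of *Tbx3* and *Prdm14* and of *Prdm14* and *Nr5a2*, so their order per kb is not resolved.

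By 48 h the factor with the most transcript per kb was *Klf5*, with 716 ± 52.0 (SD, n = 4). *Zfp42* (439 ± 19.8), *Tbx3* (424 ± 28.8) and *Klf4* (372 ± 26.4) followed, and the samples of neighbours among these 3 overlapped. The next was *Tfcp2l1* with 110.1 ± 26.4 per kb, and the other 5 were at 61.9 or less. At 96 h *Klf5* (573 ± 23.3) was again first, *Klf4* (329.6 ± 16.2) was next, and *Prdm14* was last with 0.934 ± 0.769.

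**Figure D4:**
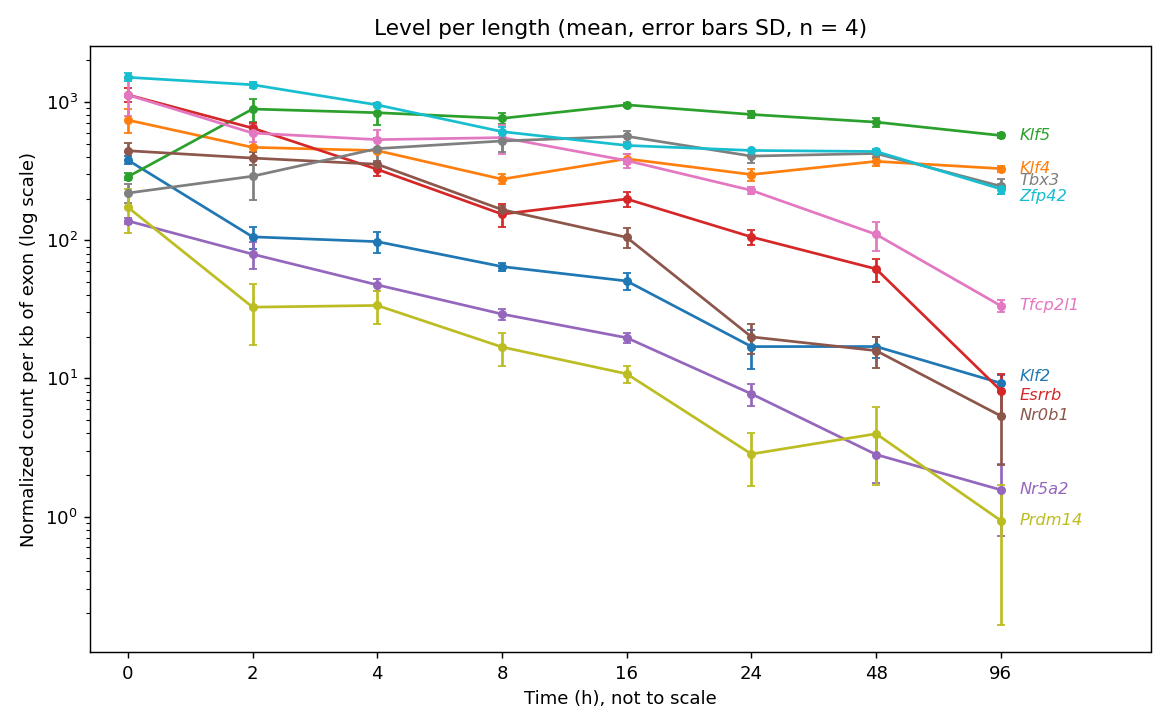
Normalized count per kb of exon (log scale) of the 10 factors against time (hours, not to scale). Points are means of 4 samples and bars their SD. *Zfp42* leads at 0 h with 1509.8, *Klf5* at 48 h with 716, and 5 factors end at 9.23 or less at 96 h.

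Against 17 other pluripotency genes, the naive factors had the larger median change at each later time point, for instance -3.77 against -0.68 at 48 h, which is a description and was not tested. Of the 17, *Gbx2*, a homeobox factor downstream of STAT3, passed the 4-fold threshold below 0 h from 2 h on (-2.49 at 2 h). *Fgf4*, *Nanog* and *Sox2* joined at 8 h (-2.44, -3.63 and -2.45), *Dppa3* and *Tdgf1* at 24 h (-3.46 and -3.04), and *Gdf3*, *Pou5f1* and *Tcl1* at 96 h (-4.48, -2.14 and -3.49). *Lin28a*, an RNA-binding protein of pluripotent cells, passed it above 0 h at 16, 24 and 48 h (2.33 at 48 h). *Pou5f1* still had 67.7% of its 0 h mean at 48 h, a level above that of 8 of the 10 naive factors relative to their own 0 h means.

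Of 14 other KLF genes 11 were tested, and their median change lay between -0.09 and 0.22 at the 7 time points. *Klf6* passed the 4-fold threshold above 0 h at each of them, from 234 ± 21.4 normalized counts at 0 h to 1732 ± 127 at 2 h and 3226 ± 122 at 96 h (SD, n = 4). *Klf15* passed it below 0 h at 24 h (-2.05) and 96 h (-3.75), *Klf12* at 48 h (-2.63) and 96 h (-3.38) and *Klf10* at 96 h (-2.17). *Klf1*, *Klf14* and *Klf17* did not pass the filter.

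The signals that the culture medium acts on were followed by fixed lists. Of 6 genes of the LIF and STAT3 pathway, none passed the 4-fold threshold at 2 h by limma (2 were higher and 1 lower at an unadjusted p under 0.05), and *Lifr*, the LIF receptor, alone did so later, above 0 h at 96 h (2.73). Of 9 genes of the Wnt and GSK3 pathway, *Sp5* and *Nkx1-2* passed it below 0 h at 2 h (-2.69 and -4.04), 5 passed it at 4 h, 4 at each of 8, 16 and 24 h, 6 at 48 h and 5 at 96 h. *Cdx1* was among them from 4 h on, *Lef1* from 4 h to 48 h, *Nkd1* at 4 h, and *Axin2* and *Tcf7* at 48 and 96 h. *Sp5* fell to at most 3 reads per sample from 8 h on, at least 70.1-fold lower than at 0 h at 8 h.

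Of 9 genes that report MEK and ERK output, the phosphatases *Dusp4* and *Dusp6*, the early gene *Egr1* and the feedback inhibitor *Spry4* passed the 4-fold threshold above 0 h at 2 h (4.55, 2.93, 4.58 and 3.08) and at 4 h. The 0 h samples were far apart for *Dusp6* (69.3 to 487 normalized counts) and *Spry4* (36.3 to 526), and their 2 h means were 557% and 466% of the 0 h means. *Egr1* no longer passed it at 8 h, *Dusp6* at 16 h or *Spry4* at 48 h, and *Dusp4* did so at all 7 time points. At 48 h *Etv4* and *Etv5* passed it below 0 h (-2.47 and -2.88), and at 96 h *Egr1* did too (-2.23). The medians of these 9 genes went from 1.77 at 2 h to -0.83 at 48 h, while that of the naive factors went from -0.73 to -3.77. How far these signals account for the changes in the naive factors was not tested.

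**Figure D5:**
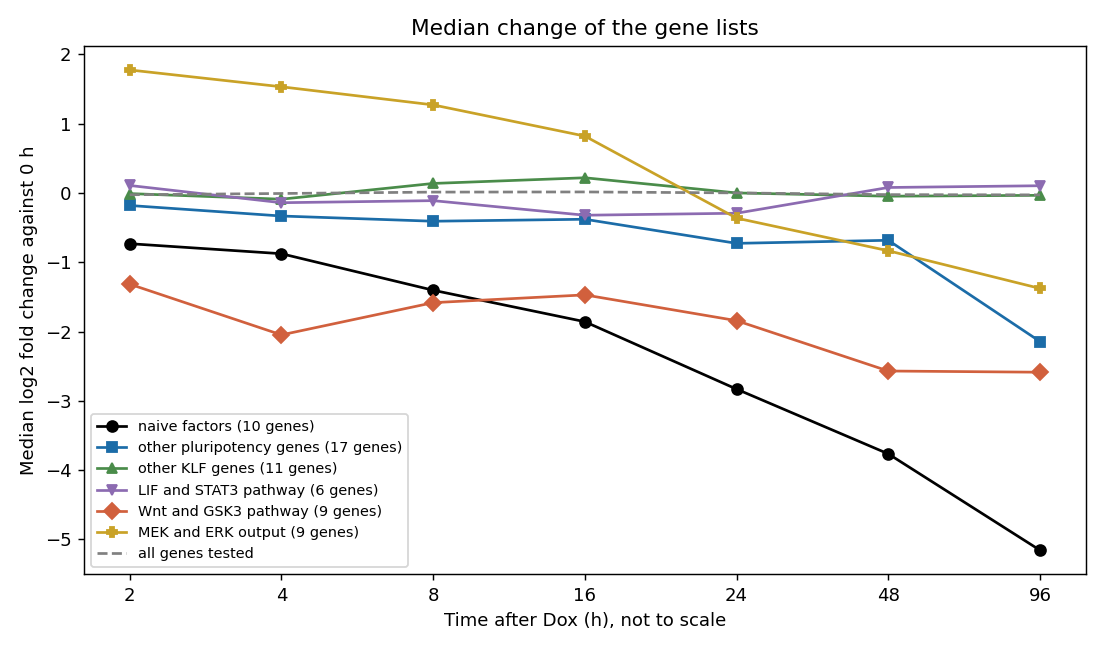
Median log2 fold change against 0 h of the naive factors and of 5 fixed gene lists at the 7 later time points (hours, not to scale), with the median of all 15227 genes dashed. The naive factors reach -5.16 at 96 h, and the LIF and STAT3 list stays between -0.32 and 0.11. Genes with at most 3 reads in every sample of a time point, set at that bound, left each plotted median as it was.

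Markers of other states were measured beside these changes. Of 5 markers of the formative epiblast, *Dnmt3b*, a DNA methyltransferase, passed the 4-fold threshold above 0 h at 8, 16 and 24 h (2.20, 3.26 and 3.67), and *Fgf5* did not pass the filter. *Dnmt3b* made up nearly all of the summed level of the list, which was 596.8 to 939.6 at 0 h, 8114 to 9216 at 24 h and 2213 to 3164 at 96 h. At 24 h *Otx2* was at 99.0% of its 0 h mean, *Pou3f1* at 93.6% and *Sox3* at 19.8%, and the median change of the 4 genes tested was -0.14. Of 6 trophoblast markers, *Elf5* did not pass the filter, and *Tfap2c* passed the threshold below 0 h from 8 h to 24 h (-2.19, -2.95 and -2.54). *Gata3* passed it above 0 h at 2, 4, 8, 48 and 96 h and *Hand1* at 2, 24, 48 and 96 h. Both had at most 3 reads per sample at 0 h. With 0 h set at that bound, *Gata3* was at least 3.446-fold higher at 2 h, 3.685-fold at 4 h, 3.623-fold at 8 h and 9.32-fold at 48 h. *Hand1* was at least 1.673-fold higher at 2 h, 3.423-fold at 24 h and 14.8-fold at 48 h. Their calls before 48 h are therefore not secure as 4-fold rises. The summed level of the trophoblast list was 657.7 to 719.6 at 0 h, 225.5 to 378.7 at 2 h and 385.3 to 604.9 at 48 h. Their part in the fall of the naive factors was not tested.

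For each factor, the gene outside the 10 with the most similar course was named by the smallest root mean square difference of the log2 fold changes over the 7 later time points. *Tfcp2l1* was closest to *Dtx3l* (0.17), *Klf4* to *Foxp4* (0.19), *Zfp42* to *Syne2* (0.20), *Tbx3* to *Epb41l2* (0.22) and *Klf5* to *Foxo1* (0.24). *Nr5a2* was closest to *AA467197* (0.26), *Nr0b1* to *Hap1* (0.40), *Esrrb* to *Ppp1r14d* (0.45), *Klf2* to *Dglucy* (0.53) and *Prdm14* to *Osm* (0.60). The last, *Osm*, which encodes a cytokine of the LIF family, had changes of -2.42 at 2 h and -7.28 at 96 h, beside -2.44 and -7.12 for *Prdm14*. The 2 genes were further apart at 24 h (-6.43 for *Osm* and -5.75 for *Prdm14*) and at 48 h (-6.68 and -5.37).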

How the data were processed

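RNA was sequenced from 4 samples at each of 8 time points. Per the labels, the authors trimmed reads with cutadapt 2.7, checked them with FastQC 0.11.8, aligned them to GRCm38 with HISAT2 2.1.0, counted them per gene with featureCounts (Subread 1.6.4), and deposited log2 values from the DESeq2 variance-stabilizing transformation, in 1 table of 54233 rows and 32 samples. The transformation was inverted here to normalized counts, and dividing out each sample's step gave whole reads for 100.0% of values (tolerance 1e-06). Rows without a symbol (29140) were kept, and 29046 of them were named from their identifiers.

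The filter kept the 15227 genes that reached a normalized count of 10 in 4 or more samples. They were tested with limma 3.58.1 in R 4.3.3, with a trend in the variance, on log2(normalized count + 1) of all 32 samples, with Benjamini-Hochberg adjustment in each of 15 comparisons. Calls required an FDR under 0.1 and, for the 4-fold threshold, a log2 fold change of at least 2. The tests were checked on simulated samples drawn independently, without replicate sets, so the check does not cover the sets in these data. The p-values measure only the spread between these samples, which may be technical. Differences between pairs of factors used exact permutation tests (SciPy 1.17.1). Depth was 3190108 to 12301732 reads on genes, and counts of up to 3 reads were treated as the floor. Gene locations are from GENCODE M21, whereas the counts rest on another GENCODE release.

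The 10 factors and the gene lists were chosen with earlier results of these data known. All 10 factors are described. Of each list, genes past the threshold were named where 5 or fewer passed in 1 direction, and otherwise at most the 2 largest rises and the 2 largest falls at 48 h, with the additions to a list by time point given after its values were seen. The gene closest in course to each factor was taken among genes with a symbol and a mean of at least 100 normalized counts at their highest time point. Alternatives changed the pseudocount, filter, scaling, test, threshold, replicates used and replicate block.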

Additional observations from a re-analysis of the deposited data

Results flagged for a closer look

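*Prdm14* at 48 h had 1 sample far from the others of its time point. Replicate 2 stood at 18.8 normalized counts, and the other samples stood at 6.60, 7.04 and 8.26. The gap from replicate 2 to the nearest of them was 0.864 of the whole range, above Dixon's 95% critical value for 4 samples. All 80 groups of 4 samples (10 factors at 8 time points) were examined in this way, and chance alone gives such a gap in about 1 of every 20 groups.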

How the results depend on the processing

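The 30 counts of factors past the 4-fold threshold were recomputed under 600 alternatives, of which 558 left the count within 1.5 times its value and 42 did not. Of 3000 recomputed changes of single factors, 2852 kept their direction and their call, 122 gained a call, 5 lost theirs and 21 changed sign. Each call was made at the threshold of its own alternative. Where the alternative was a fold of at least 2 or no fold minimum, the gained calls follow from the lower threshold and are under 4-fold. With no fold minimum the counts lower than 0 h were 7, 7, 8 and 8 at 2, 4, 8 and 16 h, and those higher were 2 from 2 h to 48 h and 1 at 96 h. Between neighbouring time points they were 3, 7, 3, 8, 3 and 9 lower, and 1 (4 h against 2 h), 2 (16 h against 8 h) and 1 (48 h against 24 h) higher, with 1 higher at 48 h against 2 h. At a fold of at least 2, the factors lower than 0 h were 2, 5 and 8 at 2, 4 and 8 h. Of all 15227 genes, 636, 779 and 849 were lower at these time points. The factors higher were 1, 2, 2, 2, 1 and 1 from 2 h to 48 h. Over all genes, 892, 1170, 1376, 1485, 1776 and 2751 were higher. At this fold, 2, 4, 2 and 4 factors were lower at 8 h against 4 h, 24 h against 16 h, 48 h against 24 h and 96 h against 48 h. For these steps the counts over all genes at this fold are not given, so the factors cannot be set against them. With no fold minimum, 7.57%, 14.8%, 27.8% and 27.2% of all genes were lower, and the shares at this fold cannot exceed these. The differences from the 4-fold counts follow from the threshold itself.

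Replicates 1 and 2 alone gave 2 factors lower at 2 h. Scaling by total reads, limma-voom and replicates 3 and 4 alone each gave 2 lower at 4 h, and replicates 3 and 4 alone gave 2 lower at 24 h against 16 h and 3 at 96 h against 48 h. Leaving out 1 replicate gave 1 to 2 lower at 4 h, 4 to 5 at 16 h and 1 to 2 at 24 h against 16 h, the higher count without replicate 2 at 4 h and at 24 h against 16 h. The cause was not tested.

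Changes of sign concerned steps that did not pass the test, except *Klf4* at 48 h against 2 h, which was 0.049 in replicates 1 and 2 alone. From 2 h to 4 h, *Klf2* was 0.28 in replicates 1 and 2 alone and -0.25 to 0.092 with 1 replicate left out, *Klf4* was 0.015 with total reads, 0.25 in replicates 1 and 2 alone and -0.15 to 0.080 with 1 left out, and *Prdm14* was -0.15 in replicates 3 and 4 alone and -0.081 to 0.24 with 1 left out. From 4 h to 8 h, *Tfcp2l1* was -0.053 in replicates 1 and 2 alone and -0.0038 to 0.063 with 1 left out. From 24 h to 48 h, *Klf2* was -0.046 with total reads, -0.076 with the upper quartile, -0.093 in replicates 3 and 4 alone and -0.15 to 0.30 with 1 left out, *Tbx3* was -0.017 and -0.048 with these scalings, and *Zfp42* was -0.0472 to 0.0055 with 1 left out. *Tbx3* was -0.095 at 96 h against 0 h with total reads and 0.10 at 96 h against 2 h in replicates 1 and 2 alone. Total reads moved the median of all genes to -0.127 (2 h), -0.157 (48 h) and -0.287 (96 h), and the upper quartile to -0.137 (48 h).

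Of 12 pair differences, those in replicates 1 and 2 alone and in replicates 3 and 4 alone were -2.52 and -3.09 (*Klf4* and *Klf5* at 8 h), 0.51 and 1.15 (*Nr0b1* and *Nr5a2* at 8 h), -5.49 and -6.04 (*Klf2* and *Klf5* at 48 h), -1.89 and -2.68 (*Klf4* and *Klf5* at 48 h) and 1.40 and -0.22 (*Esrrb* and *Nr0b1* at 48 h). Over all genes, the count lower at 2 h was 53, 17 with a pseudocount of 5, 14 with a mean of at least 50, 17 with the deposited values, 80 and 83 in the replicate sets alone.

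The replicate numbers were shared by all time points but are not stated to pair samples. Deviations of samples with the same number had a mean correlation of 0.196, those of other numbers of the same set 0.196 and those between sets -0.196, and 14 of 32 samples were closest to their own number. With the replicate block 53 genes were lower and 305 higher at 2 h, and 1080 and 1291 at 48 h, and no count of factors past the 4-fold threshold changed. Of the single changes at an adjusted p under 0.1, 0 were lost and 4 were gained under the block (*Tbx3* at 96 h against 0 h, adjusted p = 0.076 by limma, among them), and after averaging within the replicate sets all 4 had a limma adjusted p between 0.43 and 0.59. Levels of 1 to 16 reads limit the precision of *Prdm14*, *Nr0b1* and *Nr5a2* at 96 h.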
